A study of Rattus norvegicus with 9 samples.

Results

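N6-methyladenosine (m6A) was profiled in the cortex of 3 control rats on a 2-colour epitranscriptomic microarray, with 1 array per rat. On each array the RNA bound by an anti-m6A antibody (IP) was labelled with Cy5 and the unbound supernatant RNA (Sup) of the same rat with Cy3. The members are the probes whose spots stood well above background in IP and in Sup on each of the 3 control arrays, and their IP enrichment is log2(IP/Sup) of the scanner software's processed signals. Of 41320 non-control probes 23195 met this rule, and after 47 probes with spike-in or custom names were set apart, 23148 of 41186 transcript probes (56.2%) remained.

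All rats were male, and the methods give Sprague Dawley rats bought at 8 weeks of age and kept for a further period before surgery. The cortex was taken from the ischemic side. Control rats, labelled normal, had the neck surgery of the model rats without the wire plug that occludes the middle cerebral artery. Model rats (cerebral ischemia-reperfusion injury) had the plug for 2 h, followed by reperfusion, and are labelled 7 days. BHD rats had the same injury and were given Buyang Huanwu Decoction, and they are also labelled 7 days. There were 3 arrays in each group and 9 in all. The label of control replicate 1 counts it among 4 replicates, whereas those of the other control rats count 3.

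m6A is the most abundant internal modification of eukaryotic messenger RNA. It is written on adenosines in a short consensus sequence by the METTL3-METTL14 complex with WTAP, removed by FTO and ALKBH5, and read by YTH-domain proteins that affect splicing, export, translation and decay. In messenger RNA it is known to gather near stop codons and in long internal exons, and it is abundant in the brain. None of the 21 genes of this machinery that were looked for could be tied to a probe by name, so their own enrichment is not given.

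Dyes were not swapped, so a probe's own dye effect stays in its ratio, and the zero of log2(IP/Sup) is set by the dye normalization within each array. A value above 0 therefore means a share in IP above that of a typical probe on that array, and not an absolute degree of methylation. The cortex was measured in bulk, in which fewer cells of a type and less RNA per cell cannot be told apart.

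The probes fall into 6 classes by the start of their names. The files do not say what 4 of these names stand for (ASRN6AP1B, ASRN6AP1A, ASRNV and ASRN6SM), so they are used as given. Probes with names beginning uc. are taken to stand for transcribed ultraconserved regions, stretches of genome that are identical between distant mammals, with + or - giving the strand of the transcript. The remaining class holds 50 probes with an accession in their annotation and 10 spots each, of which 30 could be given a gene symbol and 20 of those were members. The probe sequences were not analysed here. For uc.77-, a lncRNA that was among the highest values described here, the study designed a primer pair for a PCR of the IP and Sup fractions. These oligos are shown because they define the transcript beyond its probe name, with no part in capitals.
uc.77- forward primer: ttaaaggaagtctgactgctgc
uc.77- reverse primer: gttctcgccacactctgtttct

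Among the 3 control arrays, replicate 1 stood apart. Across the members its log2(IP/Sup) correlated with that of replicate 2 at r = 0.906 and with that of replicate 3 at r = 0.895, whereas replicates 2 and 3 reached 0.973 (Pearson, 22226 members with a value on both). The highest correlation of replicate 1 was 0.972, with BHD replicate 1, and its lowest was 0.774, with model replicate 3. Members of replicate 1 deviated from the mean of the other 2 rats with an SD of 0.52, against 0.31 for replicate 2 and 0.35 for replicate 3. More than 2-fold deviations were seen for 5.47% of the members in replicate 1, 0.636% in replicate 2 and 1.04% in replicate 3. In the single channels replicate 1 was not the farthest array, with an SD of 0.44 in log2 IP and 0.40 in log2 Sup against 0.52 and 0.49 in replicate 3. Slides are not labelled, so arrays with the same scan time are counted here as a slide, which is an inference. By this all 3 control arrays and model replicate 1 were on slide 1, so slide does not separate the control arrays. The other model arrays and BHD replicates 1 and 2 were on slide 2, and BHD replicate 3 was on slide 3. On the control arrays 70.3% to 76.5% of features were well above background in IP and 57.9% to 67.8% in Sup, and no spot was saturated. Results are given below with and without replicate 1 where it moves them.

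Enrichment in IP spread widely and to both sides in control cortex. The median log2(IP/Sup) of the members was -0.093, -0.049 and -0.056 in rats 1, 2 and 3, and the mean over the rats ran from -2.13 at the 5th percentile to 1.90 at the 95th. Of 21855 members with a value in every rat, 7807 (35.7%) were above 0 in all 3, 9270 (42.4%) were below 0 in all 3 and 4778 (21.9%) differed in sign between rats. The SD of the mean across these members was 1.16, while the median SD between rats was 0.23, so the differences between transcripts were wider than those between animals. Without replicate 1 the median SD between the other 2 rats was 0.11. On the 34 accession members the median SD between repeated spots within an array was 0.058 to 0.080, against 0.21 between the rats.

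Against 0, limma with Benjamini-Hochberg adjustment called 5550 of 22843 tested members higher in IP (24.3%) and 6453 lower (28.2%), at a fold of at least 1.5 and an adjusted p under 0.05. The other 10840 did not pass. Without replicate 1, 5458 members were called higher and 6492 lower, of which 4983 and 5919 were shared with the calls from all rats, and none was called in the opposite direction. Since the zero is relative, these counts depend on it. With background correction and no dye normalization the median of the members stood at 0.46 in place of -0.063, and 9586 members were called higher and 2134 lower.

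The classes differed modestly in their medians, and ASRN6SM was the lowest in all 3 rats. Its median was -0.34, -0.40 and -0.40 in the 3 rats, -0.38 ± 0.039 (SD, n = 3), and it lay 0.33 below the other members (difference -0.33 ± 0.067, below in 3 of 3 rats). With background correction this difference was -0.16 after loess and -0.22 without dye normalization. Of its tested members 9.73% were called higher in IP and 40.5% lower, beside 24.3% and 28.2% of all members. Its 5th percentile reached -3.43, compared with -2.01 in ASRN6AP1B, and its 95th percentile was 0.78, compared with 2.00. ASRN6SM supplied 65 of the 200 members with the lowest means, which is 32.5% of them and 5.10% of its tested members, while it makes up 5.58% of all members tested. It supplied none of the 200 with the highest means. In the single channels its median log2 signal was 8.76 ± 0.23 in IP and 9.26 ± 0.26 in Sup (SD, n = 3).

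ASRN6AP1B, the class with 18225 members, had a median of -0.054, -0.015 and -0.019, and lay 0.15 ± 0.0017 above the other members (SD, n = 3, above in 3 of 3 rats). It supplied 185 of the 200 highest means, which is 92.5% of them, against 78.6% of the tested members. In ASRN6AP1A (1681 members) the median was -0.10 ± 0.055, and in ASRNV (1731 members) -0.14 ± 0.045 (SD, n = 3). Both lay slightly below the other members, by -0.043 ± 0.036 and -0.082 ± 0.024, and in all 3 rats. Their called shares were 19.8% higher and 27.4% lower for ASRN6AP1A, and 17.2% and 28.9% for ASRNV. For ASRNV the difference turned to 0.011 ± 0.016 when members needed only 1 channel well above background.

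The uc. probes had the highest class median among those in which the rats had the same sign. It was 0.14, 0.091 and 0.052 in the 3 rats, and the class lay 0.16 ± 0.063 above the other members (SD, n = 3, above in 3 of 3 rats). With no filter on dim probes this difference turned to -0.29 ± 0.22. Of the 196 tested, 31.6% were called higher in IP and 20.4% lower. The accession class had no settled direction, with medians of 0.20, 0.083 and -0.13, and a difference from the other members of 0.12 ± 0.19 (SD, n = 3). An exact two-sided sign-flip permutation test of the class differences gave p = 0.25 for every class but the accession class, where p = 0.5, and 0.25 is the smallest p that 3 rats allow. Agreement between rats was alike across classes, with r between replicates 2 and 3 from 0.964 to 0.995, and in every class replicate 1 correlated less with each of the other rats than these did with each other.

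The width of the distribution rose with the signal up to bin 9 and was smaller in the brightest bin. Members were split into 10 bins of equal size by their mean log2 signal over both channels and the 3 rats. In the dimmest bin the median was -0.36 ± 0.018 (SD, n = 3) and the 5th to 95th percentile spanned 2.45. The span was 4.75 in bin 9 and 4.37 in the brightest bin. The 95th percentile accounted for most of the rise, since it went from 0.69 ± 0.074 in bin 1 to 2.30 ± 0.087 in bin 8, while the 5th percentile went from -1.75 ± 0.031 to -2.34 ± 0.047. In the brightest bin the 95th percentile was 1.87 ± 0.088. Medians of bins 2 to 9 stayed between -0.067 and 0.035, and that of the brightest bin was -0.11 ± 0.042. The share called higher was smallest in the dimmest bin, while the share called lower was largest at both ends. In the dimmest bin 4.97% of the tested members were called higher and 34.9% lower, in bin 8 the shares were 31.4% and 28.8%, and in the brightest bin 25.5% and 35.7%. The spread between rats changed little with signal, with a median SD of 0.26 in the dimmest bin and 0.20 in the brightest. The mean signal and the ratio share both channels, and dim members had to pass the background in each channel, so these values are a description. When classes were compared within bins of signal, ASRN6AP1B still lay above the other members (0.13 ± 0.022) and uc. too (0.25 ± 0.065), while the accession class turned to -0.14 ± 0.10.

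Probes near background in 1 channel are not members, and they were not evenly divided. On all 3 arrays 1689 transcript probes (4.10%) were well above background in IP and on none in Sup, whereas 75 (0.182%) showed the reverse. Of these 75, 35 were ASRN6SM probes, 1.40% of that class, and the shares of the other classes ran from 0% to 0.181%. Neither channel passed on any array for 8431 probes, 520 of them among the 959 uc. probes (54.2%), and 7843 gave mixed flags. The members thus leave out more probes seen in IP alone than in Sup alone.

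The 20 members with a gene symbol are the named transcripts of this landscape. Limma called 8 of them higher in IP and 7 lower, beside 24.3% and 28.2% of all tested members, and 5 did not pass. They are too few to stand for a pathway or a cell type. Of 18 neuronal and synaptic genes looked for, 4 had a probe and all 4 were members. Among the other lists 1 of 8 glycolysis and hypoxia genes, 2 of 7 genes of RNA binding and translation and 1 of 5 growth factors were members. No marker of astrocytes, oligodendrocytes, microglia, endothelium and mural cells, or blood and choroid plexus could be tied to a probe, so the tissue could be checked on neuronal genes only. Map2, a defining neuronal marker, had log2 signals of 14.6 in IP and 11.96 to 12.57 in Sup in the 3 rats.

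Neuronal and synaptic transcripts lay high or near 0. Cdh2 encodes N-cadherin, an adhesion molecule of synapses and other neural junctions. Its log2(IP/Sup) was 3.08, 3.03 and 2.90 in the 3 rats, a mean of 3.01 ± 0.095 (SD, n = 3), and the IP signal was 8.03-fold the Sup signal (limma adjusted p = 1.71e-05). The rats hardly differed, and the mean was at the 99.2 percentile of all tested members. Map2, a dendritic microtubule-associated protein, had 2.06, 2.59 and 2.33, or 5.02-fold (limma adjusted p = 4.3e-05). Ppp2r2b, a brain-enriched regulatory subunit of protein phosphatase 2A, had 2.48, 1.69 and 1.57, or 3.77-fold (limma adjusted p = 0.000269). Here replicate 1 was well above the other rats, and the SD of 0.49 was the second widest among the 20 genes. Dlg4, which encodes the postsynaptic scaffold PSD-95, had 0.28, 0.26 and 0.19, a mean of 0.24 ± 0.048 (SD, n = 3), and did not pass (limma adjusted p = 0.125). These 4 synaptic and neuronal transcripts thus ranged from the 63.6 to the 99.2 percentile of the members.

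Among transcripts of other functions, Odf2l, a relative of a centriole and sperm tail protein, was 2.41, 2.39 and 2.28, or 5.13-fold in favour of IP (limma adjusted p = 2.43e-05). The log2 Sup signals of Odf2l were 7.78, 7.24 and 8.27. With background correction its mean was 1.28 after loess and 1.86 without dye normalization, still called higher. Trim2, an E3 ubiquitin ligase of neurons, was 1.97, 2.42 and 2.35, or 4.75-fold (limma adjusted p = 4.37e-05). Slc28a2, a sodium-coupled nucleoside transporter, was 1.63, 1.18 and 1.36, or 2.62-fold (limma adjusted p = 0.000239). In each of these the rats lay within 0.45 of each other on the log2 scale. Fgf2, the basic fibroblast growth factor, was 0.90, 0.82 and 1.24, or 1.98-fold (limma adjusted p = 0.00104). Cse1l, the export receptor of importin alpha, was 0.76, 0.61 and 0.51, and at 1.54-fold just past the threshold (limma adjusted p = 0.00528). Without replicate 1 it was at 0.56 and no longer passed the fold.

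Of the genes lower in IP, Ldha and Pdk3 had the lowest means. Ldha, a subunit of lactate dehydrogenase, was -2.23, -1.59 and -1.81, so that the Sup signal was 3.67-fold the IP signal (limma adjusted p = 0.000116). Pdk3, a kinase that inhibits pyruvate dehydrogenase, was -1.04, -1.89 and -2.01, or 3.14-fold in favour of Sup (limma adjusted p = 0.000635). In Pdk3 replicate 1 was nearer to 0 than the other rats, with an SD of 0.53, whereas in Ldha it was the lowest. The log2 IP signals of Pdk3 were 7.56, 7.18 and 7.24. With background correction Pdk3 was at -0.71 after loess and -0.29 without dye normalization. After loess Ndfip1, at -0.93, lay below it. Med16, a subunit of the Mediator complex, was -1.08, -1.26 and -1.05, and LOC108352165, an uncharacterised locus, was -0.99, -1.14 and -1.26. Magoh, a core protein of the exon junction complex, was -1.24, -0.87 and -0.83. In Med16, LOC108352165 and Magoh all 3 rats lay below 0, with folds of 1.97 to 2.19 in favour of Sup. With background correction and loess LOC108352165 was at -0.48 and no longer passed the fold.

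Ndfip1 and Ndfip2 are paralogous membrane adaptors of the Nedd4 family of ubiquitin ligases, and both were lower in IP. Ndfip1 was -1.20, -1.01 and -0.91, with a mean of -1.04 ± 0.15 (SD, n = 3). Ndfip2 was -0.22, -0.94 and -0.99, with a mean of -0.71 ± 0.43 (SD, n = 3) and a limma adjusted p of 0.0139. Replicate 1 was near 0 in Ndfip2 alone of the pair. Without replicate 2 or without replicate 3 the call of Ndfip2 was lost, with means of -0.60 and -0.58.

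The genes that did not pass were Eif4b, Pop7, Dlg4, Ptk2b and Pdcd10. Eif4b, a translation initiation factor, was 0.43, 0.41 and 0.54, and Pop7, a protein of ribonuclease P, was 0.16, 0.62 and 0.50. Both lay above 0 in 3 of 3 rats but under the fold threshold. Ptk2b, a calcium-activated tyrosine kinase, was 0.42, 0.021 and -0.22, and Pdcd10, a protein of the cerebral cavernous malformation pathway, was -0.22, 0.15 and -0.041. Both had rats on either side of 0, and the sign of the mean turned without replicate 1. With background correction and no dye normalization Pop7, Eif4b, Dlg4, Ptk2b and Pdcd10 were called higher, Ldha was the only one of the 7 lower genes to keep its call, and the 8 higher genes kept theirs.

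The 10 genes with a symbol that were not members failed in at least 1 channel. Nat1, an arylamine N-acetyltransferase, was well above background in IP on 3 arrays and in Sup on none, and its IP signal was at least 4.36-fold that of Sup, with the Sup level of each array set to the higher of its own signal and the dimmest signal well above background there. Pld1 and Napepld passed in IP on 3 arrays and in Sup on 2, Mex3c and Enpp1 on 3 and 1, and P2rx2 on 2 and none. Nlrp3, Cyp2e1, Lhcgr and Gdnf were not well above background in either channel on any array.

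Ultraconserved-region probes spread about as widely as all members, with an SD of the mean across members of 1.24 against 1.19. Of 959 such probes 199 were members, 86 of 479 on the plus strand and 113 of 480 on the minus strand. The median was -0.18, -0.017 and 0.070 for plus strand members and 0.22, 0.11 and 0.048 for minus strand members, so the strands did not differ in the same direction in all rats. Highest of the called members was uc.46-, with 3.57, 4.22 and 3.76, or 14.4-fold in favour of IP (limma adjusted p = 1.8e-05). It was followed by uc.61-, with 2.46 and 3.41 in rats 1 and 3 and an outlier spot left out in rat 2. The log2 Sup signal of uc.61- in rat 3 was 6.86. With background correction its mean was 1.47 after loess and 2.02 without dye normalization. uc.77-, whose primers are given above, had 3.05, 2.20 and 2.51, or 6.02-fold (limma adjusted p = 5.95e-05). The log2 Sup signals of uc.77- were 8.05, 8.26 and 8.67. With background correction its mean was 1.68 after loess and 2.32 without dye normalization. uc.75- had 2.70, 2.57 and 2.28, or 5.73-fold (limma adjusted p = 2.79e-05). All of these were minus strand probes and at or above the 98.1 percentile of the members.

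At the other end stood uc.350+, with -4.33, -4.35 and -3.93, or 18.4-fold in favour of Sup (limma adjusted p = 1.5e-05). uc.483- had -4.33, -3.47 and -3.34, uc.247+ had -3.27, -3.98 and -3.85, and uc.136+ had -3.75, -3.35 and -3.52. Their folds in favour of Sup were 11.6 to 13.1, and every rat lay below -3. With background correction and no dye normalization uc.350+ was at -2.74, uc.483- at -2.20 and uc.136+ at -2.06, each still called lower. The lncRNA uc.440- was near 0, with 0.26 and 0.066 in rats 1 and 3 and an outlier spot left out in rat 2, and did not pass (limma adjusted p = 0.429). With background correction and no dye normalization uc.440- was at 0.83 and was called higher.

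In 33 ultraconserved regions the probes of both strands were members. The values of the strands had the same sign in 20 of these regions, and across the regions they correlated weakly (Pearson's r = 0.114, Spearman's rho = 0.267, 33 pairs that share the arrays). The median absolute difference between strands was 0.58. The largest was in uc.378, where the plus strand was at 2.10, 2.32 and 2.46 and the minus strand at -2.86, -2.50 and -2.60. The difference of plus minus minus was 4.94 ± 0.12 (SD, n = 3). With background correction and loess the means of uc.378 were 1.39 on the plus strand and -2.48 on the minus strand. In uc.77 it was the minus strand that was high, as given above, while the plus strand was at -0.84, -1.55 and -1.35, and the difference was -3.84 ± 0.072 (SD, n = 3). uc.246 had the plus strand at 1.67, 1.65 and 1.33 and the minus strand at -2.03, -2.01 and -1.99, a difference of 3.56 ± 0.21 (SD, n = 3). The regions were chosen for these differences, so they are a description. In each, every rat had the strands on opposite sides of 0. In uc.77 and uc.378 the difference varied less between rats than either strand. The SDs of the single strands were 0.43 and 0.37 in uc.77 and 0.18 and 0.19 in uc.378. In uc.246 the difference varied more than either strand, with SDs of 0.19 and 0.019 for the single strands.

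Over all classes the highest means of called members were 5.21 ± 0.40 (SD, n = 3) for the probe ASRN6AP1A10000844711, with 4.85, 5.13 and 5.63, and 5.09 for ASRN6AP1B10001596211, with 5.28 and 4.90 in rats 1 and 3. The log2 Sup signals of ASRN6AP1B10001596211 were 7.31 and 7.90. With background correction its mean was 3.24 after loess and 3.84 without dye normalization. The lowest were both ASRN6SM probes. ASRN6SM110002474911 had -6.63, -6.85 and -6.49, or 101-fold in favour of Sup (limma adjusted p = 1.5e-05), and ASRN6SM110002734811 had -6.29, -6.37 and -6.49. In rat 1 their log2 IP signals were 6.63 and 6.59, and their log2 Sup signals 13.3 and 12.9. With background correction their means were -4.26 and -3.83 without dye normalization and -4.91 and -4.50 with loess. The genes of these probes are not named in the files.

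The control landscape was set beside the other groups to see where it differs. Mean r within a group was 0.925 in control, 0.940 in model and 0.944 in BHD, and without replicate 1 the control value was the 0.973 given above. The 5th to 95th percentile width over the members was 4.08 ± 0.10 in control, 3.96 ± 0.23 in model and 3.79 ± 0.19 in BHD (SD, n = 3), with an exact permutation p of 0.4 for control against model and 0.1 for control against BHD. Members were chosen on the control arrays. Of the class medians, that of ASRN6SM did not overlap between groups, at -0.38 ± 0.039 in control, -0.50 ± 0.060 in model and -0.30 ± 0.013 in BHD (SD, n = 3). The exact two-sided permutation test gave p = 0.1 for control against model and for control against BHD, the smallest that 3 against 3 allow, and 0.467 after adjustment over 28 such tests. No slide held both control and BHD arrays, so for that comparison slide and group cannot be told apart. Slide also bears on control against model. Model replicate 1, hybridized on slide 1 as the control rats were, had an ASRN6SM median of -0.44, against -0.40 in the lowest control rat. Model replicates 2 and 3, both on slide 2, had -0.54. An effect of slide on this median was not tested. Medians of the other classes gave a permutation p of 0.3 to 1.

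Probe by probe, limma at the methods' thresholds (fold of at least 1.5 and unadjusted p under 0.05) called 1980 of 40764 probes between model and control (4.86%), and 696 of 22731 members (3.06%), of which 267 were higher and 429 lower in model. After Benjamini-Hochberg adjustment limma called none, the smallest adjusted p being 0.562, against 2578 probes at an unadjusted p under 0.05. The count of members rested on single arrays. Leaving out control replicate 1, 2 or 3 gave 137, 1250 or 1368 members. Leaving out model replicate 1, 2 or 3 gave 2883, 184 or 226. Without model replicate 1 no slide held both control and model arrays, so for the 2883 slide and group cannot be told apart. With the replicate number as a block 1740 members were called. With slide as a block only model replicate 1 is compared with the control rats, so that count is not used here.

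Of the 20 named genes Slc28a2 and Ppp2r2b met these thresholds. Slc28a2 was 1.11, 0.87 and 0.024 in the model rats, a difference of -0.72 ± 0.30 (SE, limma adjusted p = 0.670). Ppp2r2b was 1.60, 0.76 and 0.49, a difference of -0.96 ± 0.38 (SE, limma adjusted p = 0.670). Its groups overlapped, while each model rat lay below the control rat of the same number. With the replicate number as a block and no BHD arrays, the SE was 0.15 (limma unadjusted p = 0.00171, adjusted p = 0.242). That block was adopted from correlations in these same data, so this p is not independent of the choice. Without control replicate 1 the differences were -0.60 and -0.68, and neither gene met the thresholds (limma unadjusted p = 0.119 and 0.117). With slide as a block only model replicate 1 was compared with the control rats. The differences for that array were -0.28 and -0.32. uc.77- was 2.48, 1.53 and 1.46 in the model rats, a difference of -0.77 ± 0.35 (SE, limma unadjusted p = 0.0568), and its groups overlapped.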

How the data were processed

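RNA of the cortex of 9 rats was hybridized to a 2-colour m6A array, with IP RNA in Cy5 and Sup RNA in Cy3. The authors deposited the scanner output, in which intensity values were corrected for background and dye within each array by Agilent Feature Extraction 11.0.1.1, and a table of log2 IP and Sup signals after GeneSpring normalization for 32860 probes. The genome build of the array is not given in the sources used here.

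From the processed intensities log2(IP/Sup) was computed, outlier spots were left out, repeated spots were averaged, and a probe counted as well above background on an array when more than 0.5 of its spots were. Tests needed at least 2 values in a group. Software comprised limma 3.58.1 under R 4.3.3 (with version 1.17.8 of data.table), and pandas 2.3.3 and numpy 2.4.6 under Python 3.11.15. IP was tested against Sup with limma on the 3 control arrays, called at a fold of at least 1.5 and a Benjamini-Hochberg adjusted p under 0.05. Model and control were compared with limma in a fit of all 9 arrays. Class medians were compared with exact permutation tests. The number of arrays limits the precision. The labels call the samples biological replicates. Symbols came from matching accessions to RefSeq genes of GRCr8, used for names only.

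Members and lists were chosen with earlier results of these data known. Named were all members with a symbol, uc.440- and uc.77-, the 4 highest and 4 lowest called uc. members, the 2 highest and 2 lowest called members of any class, and the 3 regions with the largest difference between strands. Gene lists were described and not tested, since few of their genes had a probe.

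Deviations of same-numbered control and model arrays from their group means correlated at 0.649, 0.450 and 0.331, each above 0.1, so the numbers were treated as a possible pairing, although no source says what a number shares. Arrays of different numbers were not compared in this way. Tested on simulated data for IP against Sup over 21855 probes, the fit recovered 16 of 100 probes changed by a log2 of 1 and 78 of 100 changed by 2, with 1 false call. In that simulation 200 probes were changed, all others had a mean of 0, and the noise was independent between arrays. In the data 24.3% of tested members were called higher and 28.2% lower, so these figures do not give the recovery or false calls there. Alternatives covered background correction (normexp, offset 50), loess, the deposited table, centring, filters, outlier spots, the test, the thresholds, blocks, and each replicate left out. 0 columns of per-sample values belonged to no sample.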

Additional observations from a re-analysis of the deposited data

How the results depend on the processing

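Of the calls for IP against Sup, none turned to the opposite direction under any alternative. The number of members higher and lower in IP was 9586 and 2134 with background correction and no dye normalization, 4242 and 4252 with background correction and loess, 3237 and 3356 in the upper part of the signal, 3493 and 4118 at a fold of at least 2, and 2982 and 3794 with a plain one-sample test. Without the filter on dim probes it was 8912 and 8438. Leaving out each control rat gave 5221 to 5458 higher and 6272 to 6492 lower. Fewer probes enter the signal setting, and for the others the cause was not tested.

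In comparing model with control, 1677 members were called with background correction and no dye normalization, 249 with loess, 3029 with the deposited table and 149 with a plain equal-variance test. With no filter 1980 probes were called and with an adjusted p 0. With the replicate number as a block, the possible pairing, 1740 were called, and with slide as a block 94. In the fit with slide as a block only model replicate 1 is compared with the control rats. The 94 is therefore not a slide-adjusted count for all model rats. Leaving out each replicate gave 137 to 2883, the latter without model replicate 1, where slide and group cannot be told apart. The cause was not tested.

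The difference of a class from the other members moved by more than 1 SD between rats in these cases. For ASRN6AP1B it was 0.12 without dye normalization, 0.075 with loess, 0.15 with the deposited table, 0.23 without a filter, 0.10 with 1 channel well above background, 0.30 as a mean and 0.13 within bins of signal. For ASRN6AP1A it was -0.13 without a filter and -0.11 as a mean. For ASRNV it was -0.038 with loess, -0.13 without a filter, -0.14 as a mean and -0.048 within bins, and it reversed to 0.011 with 1 channel well above background. For ASRN6SM it was -0.22 without dye normalization, -0.16 with loess and -0.65 as a mean. For uc. it was 0.057 without dye normalization, 0.073 with loess, 0.29 with 1 channel well above background and 0.25 within bins, and it reversed to -0.29 without a filter. For the accession class it was 0.36 without a filter and 0.39 with 1 channel, and it reversed to -0.14 within bins. Leaving out each rat kept every direction. The mean correlation between control rats was 0.854 without a filter, and 0.895 to 0.973 when each rat was left out.

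Among the named members, the sign of Pdcd10 reversed to 0.68 without dye normalization, 0.045 with loess, 0.028 with arrays centred and 0.052 without replicate 1, and that of Ptk2b to -0.10 without replicate 1 (0.22 without replicate 3). Calls were lost for 7 named members with the plain one-sample test (Ppp2r2b, Pdk3, Magoh, Ndfip2, uc.61-, uc.77+ and ASRN6AP1B10001596211), for LOC108352165 with loess, and for uc.77+ and 6 of the 7 lower genes without dye normalization. At a fold of at least 2, Cse1l, Ndfip2, Fgf2 and Magoh were no longer called. The ratios rest on 3 arrays, and members in the dimmest bin, where signals neared background, spanned the narrowest range.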

Other observations

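The probes with spike-in and custom names, which are no transcripts by their names, also passed the rule in part. Of 102 probes with a spike-in name 32 met the rule of the members, and their median log2(IP/Sup) was -0.57 ± 0.10 (SD, n = 3). Their means ran from -3.35 to 2.41, and 19 lay below 0 and 7 above 0 in all 3 rats. Of 32 probes with a custom name 15 passed, with a median of -1.17 ± 0.058 (SD, n = 3) and means from -3.41 to 2.21. As among the transcripts, replicates 2 and 3 correlated most, at 0.990 over the spike-in names and 0.995 over the custom names, against 0.943 to 0.977 for pairs with replicate 1. What these probes were designed to detect is not given in the sources used here.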
